A study of Macaca mulatta with 38 samples.

Results

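The immediate early genes described here are FOS, FOSB, FOSL1, JUN, JUNB, EGR1, EGR2, EGR3, IER2 and ATF3. All but IER2 are transcription factor genes. The 10 genes were chosen by name and read in all 38 libraries of a culture time course of fetal macaque cortical cells. They are 10 of the 34619 genes in the count table and of the 20794 genes with enough reads to be tested. All 10 passed that filter on low counts.

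Immediate early genes are transcribed within minutes of a stimulus such as a growth factor, calcium entry or stress, with no new protein needed, and their transcripts are short-lived. FOS and JUN family proteins pair through leucine zippers into AP-1 dimers, whereas the EGR proteins are zinc finger factors that bind GC-rich sites. ERK signalling acts on their promoters through serum response factor (SRF) and the ternary complex factors, and CREB acts through cAMP response elements. In neurons they are widely used as marks of recent activity, and in neural stem cells FGF2, which signals through ERK, is a known inducer. ATF3 is in addition a target of the integrated stress response.

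The cells were wild-type rhesus macaque (Macaca mulatta) neural stem cells taken from fetal cortex and grown on polyornithine and fibronectin at 5% O2. The 4 culture series came from E77 Frontal, E77 Occipital, E42 Anterior and E42 Posterior cortex, E77 and E42 being the embryonic days named in the labels. All series had FGF2 added daily to day 5 (stem phase, days 1, 3 and 5). FGF2 was then withdrawn and the medium changed to one with B27, BDNF and NT-3 (transition phase, days 6, 7 and 8, and terminal phase, days 11, 14 and 17, with day 20 at E77). A single RNA sequencing library was made per series and day, from RNA of 2 wells, which gives 12 stem, 12 transition and 14 terminal libraries. Different days of a series therefore stand in for replicates. P-values of the phase comparisons measure the spread between days within a series and phase. Those of the age, region and single-day comparisons measure the spread left after series and day are fitted. None measures the spread between animals. Age and region cannot be told apart from differences between fetuses, dissections or culture runs. The labels do not give the hours between a medium or FGF2 change and harvest, which bears on genes whose transcripts last minutes to hours. The libraries hold bulk RNA, so fewer expressing cells and less RNA per cell cannot be told apart.

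Libraries held 20149635 to 56363300 reads counted on genes (median 27597365.5). Summed levels of 10 neuron markers were 1500 to 3214 CPM (read counts scaled to a common library size) in stem libraries, 3009 to 4933 CPM in transition libraries and 4282 to 7284 CPM in terminal libraries, and 10 radial glia markers summed to 8110 to 14067, 6067 to 9483 and 5622 to 8157 CPM in the same order. Markers of mesenchymal cells and fibroblasts summed to 14418 to 40161 CPM in E42 Anterior, against 297 to 609 CPM in E77 Frontal, 654 to 1812 CPM in E77 Occipital and 129 to 515 CPM in E42 Posterior. Between the E77 series the sum ran against most of the list: COL1A1 was at 0.45 to 55.2 CPM in E77 Frontal and 0.06 to 2.81 CPM in E77 Occipital, and PDGFRA, which oligodendrocyte precursors also express, was the 1 marker of this list called lower in E77 Frontal (-1.17 ± 0.16 on the log2 scale). Both are named after their values were seen. Microglia markers summed to at most 2.0 CPM and red blood cell markers to at most 0.1 CPM in every library. Of the 8 microglia markers, 4 had no read in any E77 Occipital library, 2 in any E42 Anterior library and 4 in any E42 Posterior library.

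Levels per transcript length, as the RPKM values deposited by the authors, put the genes in 2 tiers. JUN stood highest, with a median of 43.3 RPKM over the 38 libraries (17.1 to 58.0), and was above EGR1 in 31 of them. EGR1 had a median of 22.7 RPKM (12.3 to 77.8) and was above IER2, a small nuclear regulator, in 31 libraries. IER2 had a median of 18.6 RPKM (13.3 to 28.5), FOS 9.78 RPKM (3.98 to 18.7) and JUNB 5.85 RPKM (2.83 to 11.1). IER2 was above FOS in 37 libraries and FOS above JUNB in 35. JUNB was above EGR2 in all 38, and below that step every median was under 1 RPKM. EGR2 had 0.761 RPKM, FOSL1 0.585 RPKM, EGR3 0.347 RPKM, ATF3 0.241 RPKM and FOSB 0.201 RPKM as medians, and neighbours in this lower tier changed order often, each being the higher in only 22 to 25 of the 38 libraries. Reads per library ranged from 157 to 769 for FOS, but from 2 to 130 for FOSL1 and from 6 to 110 for FOSB, so counting error is largest for these last genes.

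EGR1, a zinc finger factor induced by ERK signalling and neuronal activity, was highest on days 6 and 7, the first days after FGF2 withdrawal, in every series. In E77 Frontal it stood at 34.0, 37.96 and 51.9 CPM on days 1, 3 and 5, at 131, 168 and 67.1 CPM on days 6, 7 and 8, and at 73.3, 55.6, 70.1 and 59.5 CPM on days 11, 14, 17 and 20. In E77 Occipital the values on the same days were 46.9, 82.0 and 57.5 CPM, then 103, 83.1 and 53.3 CPM, then 44.8, 33.9, 47.9 and 49.2 CPM. In E42 Anterior they were 56.0, 41.7 and 116 CPM, then 139.5, 207 and 83.8 CPM, then 107, 59.1 and 60.5 CPM on days 11, 14 and 17. The day 6 and day 7 libraries were the highest pair in each of these series, by a wide margin in E77 Frontal and by little in E77 Occipital, where 82.0 CPM on day 3 lay just below 83.1 CPM on day 7. In E42 Posterior EGR1 stood at 37.8, 38.7 and 76.4 CPM in stem libraries, 134, 161 and 53.7 CPM in transition libraries, and 59.5, 56.1 and 59.9 CPM in terminal libraries. The highest library of a series exceeded its lowest 3.04-fold in E77 Occipital and 4.24-fold to 4.97-fold in the other 3 series. On day 8 EGR1 was back below day 6 and day 7 in all 4 series, so the transition libraries ran from 53.3 to 207 CPM and overlapped both the stem libraries (34.0 to 116 CPM) and the terminal libraries (33.9 to 107 CPM).

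EGR2 and EGR3, relatives of EGR1 that bind like sites, traced the same days at lower levels. EGR3 reached 7.57 and 9.55 CPM on days 6 and 7 in E77 Frontal, 3.09 and 2.33 CPM in E77 Occipital, 8.41 and 11.8 CPM in E42 Anterior, and 1.90 and 4.33 CPM in E42 Posterior. Its stem libraries on days 1, 3 and 5 stood at 0.95, 1.91 and 3.20 CPM in E77 Frontal, 0.74, 1.64 and 1.28 CPM in E77 Occipital, 0.86, 0.91 and 5.62 CPM in E42 Anterior, and 0.64, 0.65 and 0.77 CPM in E42 Posterior. Days 6 and 7 were thus the highest pair in each series for EGR3 as well, and the range within a series was 6.73-fold to 13.7-fold. Day 8 EGR3 was at 2.67 CPM in E77 Frontal, 2.31 CPM in E77 Occipital, 1.80 CPM in E42 Anterior and 1.33 CPM in E42 Posterior, and terminal libraries of all series lay between 0.44 and 4.17 CPM. EGR2 stood at 9.49 and 10.98 CPM on days 6 and 7 in E77 Frontal, 3.46 and 2.44 CPM in E77 Occipital, 7.92 and 8.49 CPM in E42 Anterior, and 2.74 and 2.84 CPM in E42 Posterior. Its stem libraries ranged from 0.48 to 4.99 CPM and its terminal libraries from 0.57 to 3.40 CPM. The mean EGR2 level of days 6 and 7 over that of days 5 and 8 was lowest in E77 Occipital. It was 1.24-fold there and 2.05-fold to 2.69-fold in the other series. In E77 Occipital 2.93 CPM on day 3 also lay above 2.44 CPM on day 7.

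**Figure D1:**
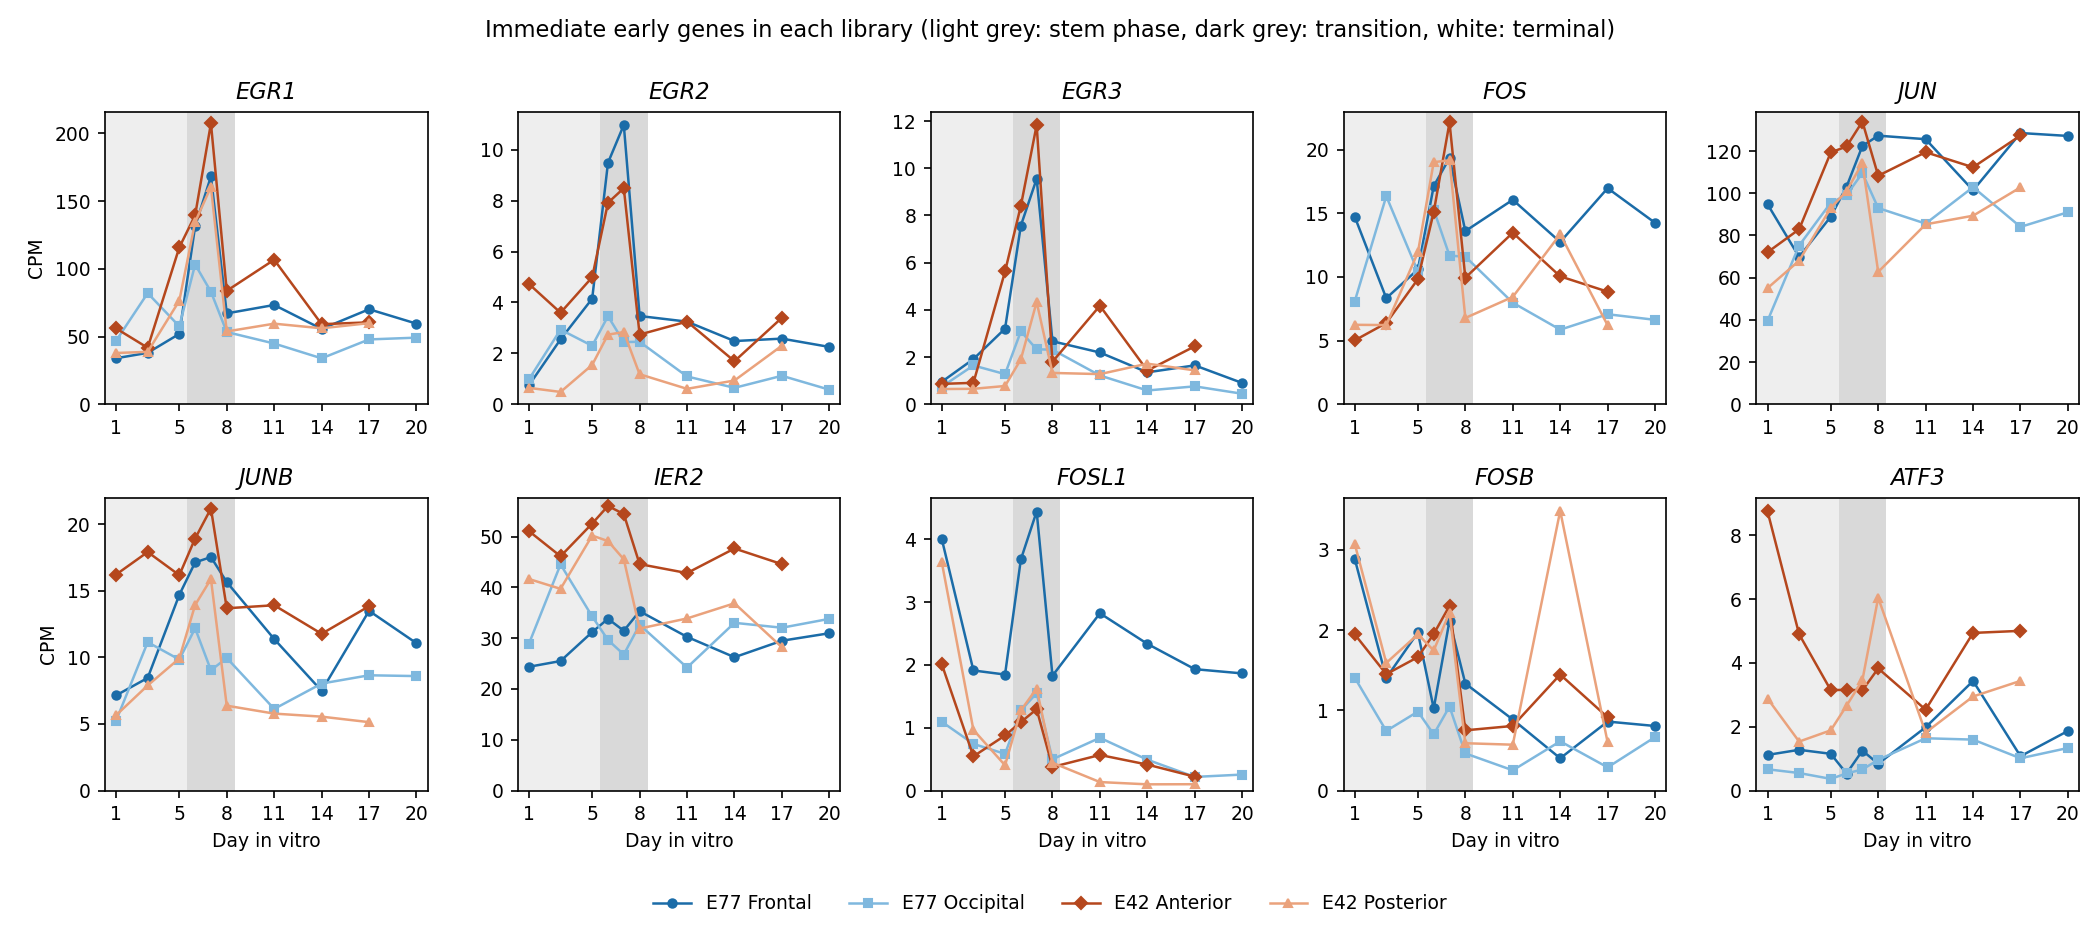
Level of each of the 10 genes (CPM, linear axis) against day in vitro, 1 line per culture series with 1 library per point. EGR1, EGR2, EGR3 and JUNB have their highest library on day 6 or 7 in all 4 series, whereas ATF3 has it there in 0 of 4.

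FOS, the founding member of the AP-1 family, had a smaller excursion on the same days. It stood at 17.1 and 19.3 CPM on days 6 and 7 in E77 Frontal, against 14.7, 8.33 and 10.6 CPM in the stem libraries of that series. In E77 Occipital FOS was at 15.3 and 11.7 CPM on days 6 and 7, and its highest library was day 3 with 16.3 CPM, between 8.06 CPM on day 1 and 10.4 CPM on day 5. In E42 Anterior FOS was at 15.1 and 22.1 CPM on days 6 and 7, against 5.01, 6.38 and 9.83 CPM in stem libraries. In E42 Posterior it was at 19.0 and 19.2 CPM, against 6.24, 6.22 and 11.9 CPM. The day 6 and day 7 libraries of FOS were the highest pair in 3 of the 4 series, E77 Occipital being the exception. Terminal FOS ran from 12.7 to 16.97 CPM in E77 Frontal, 5.86 to 7.98 CPM in E77 Occipital, 8.84 to 13.5 CPM in E42 Anterior and 6.203 to 13.4 CPM in E42 Posterior.

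FOSL1 and FOSB, the FOS relatives, differed in their highest day between series. FOSL1, which is tied to adhesion and growth factor signalling in many cell types, stood at 4.01 CPM on day 1 and 4.45 CPM on day 7 in E77 Frontal, with 1.83 to 3.68 CPM on other days. In E77 Occipital it was at 1.10 CPM on day 1, 1.55 CPM on day 7 and 0.22 to 1.28 CPM on other days. In E42 Anterior FOSL1 was at 2.01 CPM on day 1, 1.30 CPM on day 7 and 0.57, 0.41 and 0.22 CPM on days 11, 14 and 17. In E42 Posterior the day 1 library held 3.64 CPM, day 7 held 1.62 CPM, and the 3 terminal libraries held 0.13, 0.10 and 0.10 CPM, which are the lowest values of the gene. FOSB ran from 0.25 to 3.49 CPM. Its highest library was day 1 in both E77 series, day 7 in E42 Anterior and day 14 in E42 Posterior, where 3.49 CPM stood between 0.57 CPM on day 11 and 0.60 CPM on day 17.

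JUN, the AP-1 partner with which FOS proteins pair, varied least in relative terms among the genes at high level apart from IER2. It climbed through the stem days in E77 Occipital (39.5, 75.2 and 95.5 CPM), E42 Anterior (72.1, 82.9 and 119 CPM) and E42 Posterior (55.0, 68.1 and 93.1 CPM), and stood at 94.8, 69.8 and 88.9 CPM in E77 Frontal. Transition libraries of JUN held 62.7 to 134 CPM and terminal libraries 84.1 to 129 CPM, so these later phases overlapped widely. JUNB, an AP-1 member that can oppose JUN, peaked at 17.5 CPM on day 7 in E77 Frontal, 12.2 CPM on day 6 in E77 Occipital, 21.2 CPM on day 7 in E42 Anterior and 15.9 CPM on day 7 in E42 Posterior. Its peaks were 1.80-fold to 3.09-fold above the lowest library of the series. IER2 spanned 24.2 to 35.3 CPM in E77 Frontal and E77 Occipital apart from 44.5 CPM on day 3 in E77 Occipital, 42.8 to 56.1 CPM in E42 Anterior and 28.2 to 50.2 CPM in E42 Posterior. ATF3, a stress-induced repressor of the ATF and CREB family, stayed between 0.36 and 3.43 CPM in the E77 series, and between 1.53 and 8.75 CPM in the E42 series. On days 1, 3, 5, 6, 7 and 8 ATF3 stood at 1.12, 1.28, 1.15, 0.53, 1.25 and 0.84 CPM in E77 Frontal and at 0.66, 0.55, 0.36, 0.54, 0.66 and 0.96 CPM in E77 Occipital, against 8.75, 4.90, 3.14, 3.16, 3.14 and 3.83 CPM in E42 Anterior and 2.88, 1.53, 1.89, 2.66, 3.46 and 6.04 CPM in E42 Posterior. On these days every E77 library was below every E42 library. Its highest library was day 14 in E77 Frontal, day 11 in E77 Occipital, day 1 in E42 Anterior and day 8 in E42 Posterior.

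Of the 10 genes 4, EGR1, EGR2, EGR3 and JUNB, had their highest library on day 6 or 7 in all 4 series, as did 210 of the 20794 genes tested (1.01%). This count was made after the values had been seen and is given as a description. JUN and FOS had it there in 3 series, FOSL1 in 2, and FOSB and IER2 in 1. Ordering the 12 means of series and phase for each gene, no 2 neighbours differed by more than the larger of their SDs for EGR1, FOS, FOSB and ATF3, 1 of 11 neighbouring pairs did for JUN, EGR2 and IER2, and 2 of 11 did for FOSL1, JUNB and EGR3.

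The transition phase was compared with the stem phase to ask how the genes behaved when FGF2 was withdrawn and the medium changed. EGR1, EGR2, EGR3, FOS, JUN and JUNB rose, and no member fell: 6 of 10 were called higher, where 21.6% of all tested genes were, and 0 of 10 lower, where 20.0% were (edgeR's quasi-likelihood test on the mean change over the 4 series, Benjamini-Hochberg adjusted p at 0.05 over all tested genes). The median log2 fold change was 0.435 over the 10 genes and 0.0172 over all genes. EGR1 averaged 115 ± 49.3 CPM in transition libraries and 56.4 ± 24.2 CPM in stem libraries (SD, n = 12 each), with a log2 fold change of 1.03 ± 0.20 (SE, adjusted p = 1.3e-04). EGR3 averaged 4.76 ± 3.59 CPM and 1.60 ± 1.47 CPM in transition and stem libraries, with 1.56 ± 0.32 (adjusted p = 2.5e-04), and EGR2 averaged 4.85 ± 3.35 CPM and 2.47 ± 1.63 CPM, with 0.998 ± 0.27 (adjusted p = 0.0032). FOS changed by 0.69 ± 0.17 (adjusted p = 0.0019), JUN by 0.44 ± 0.11 (adjusted p = 0.0021) and JUNB by 0.43 ± 0.14 (adjusted p = 0.014). Each of these 6 had a higher transition mean in 4 of 4 series. FOSB was at -0.38 ± 0.27, FOSL1 at -0.01 ± 0.30, IER2 at 0.01 ± 0.08 and ATF3 at 0.06 ± 0.21, none of which passed. The same 6 genes passed with each of 24 libraries left out, but JUNB did not when day 1 was left out (0.25 ± 0.14, adjusted p = 0.16). With the 4 series averaged to 1 value per day, limma called 3 of the 6, and JUN (adjusted p = 0.052), EGR2 (0.084) and JUNB (0.14) did not pass.

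By series, the EGR1 change at transition was 1.57 ± 0.40 in E77 Frontal, 0.36 ± 0.40 in E77 Occipital, 1.01 ± 0.40 in E42 Anterior and 1.19 ± 0.40 in E42 Posterior on the log2 scale (± SE). E77 Occipital was thus the lowest of the series, but its difference from the other 3 did not pass (-0.90 ± 0.46, adjusted p = 0.49 by edgeR, a contrast added after the values had been seen). The E77 change minus the E42 change was -0.14 ± 0.39 for EGR1 and -0.66 ± 0.34 for FOS (adjusted p = 0.95 and 0.45, also added). Cell type markers moved at the same step, at which 21.6% of all genes were higher and 20.0% lower. Of 10 neuron markers 9 were higher (median log2 fold change 1.55). Of 10 radial glia markers 6 were lower and 2 higher, and 7 of 10 cycling cell markers were lower. Their part in these results was not tested.

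From transition to terminal phase the members that had risen mostly came down again. Of the 10 genes, 6 were lower (19.2% of all genes) and 1 was higher (22.7%), with a median log2 fold change of -0.623 against 0.0103 over all genes (edgeR). EGR1 averaged 59.7 ± 16.8 CPM in 14 terminal libraries and 115 ± 49.3 CPM in 12 transition libraries and fell by 0.93 ± 0.19 on the log2 scale (adjusted p = 2.8e-04). EGR3 fell by 1.54 ± 0.31 (adjusted p = 1.7e-04), EGR2 by 1.33 ± 0.26 (1.3e-04), JUNB by 0.65 ± 0.14 (2.5e-04) and FOS by 0.57 ± 0.17 (0.0063). FOSL1, at 0.878 ± 0.940 CPM in terminal and 1.61 ± 1.25 CPM in transition libraries, fell by 1.59 ± 0.33 (adjusted p = 2.7e-04). JUN (-0.03 ± 0.11), FOSB (-0.59 ± 0.27, adjusted p = 0.076) and IER2 (-0.18 ± 0.07, adjusted p = 0.055) did not pass. IER2 did pass in 6 of 9 alternatives, DESeq2's test and both RPKM fits among them, and in 9 of 26 fits with 1 library left out. FOSB passed without day 8 (-0.87 ± 0.27, adjusted p = 0.011) and in 3 of 26 such fits. ATF3 was at 0.48 ± 0.19 (adjusted p = 0.046), a call that was lost with DESeq2's size factors (0.052), without the filter on low counts (0.064), without day 20 (0.057) and without the E42 Anterior series (0.060). With 1 value per day limma called none of the 10, and the 7 genes that edgeR had called were at adjusted p-values of 0.051 to 0.24. In the edgeR fit 9 of the 10 had an unadjusted p under 0.05, where 49.6% of all genes had one.

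**Figure D2:**
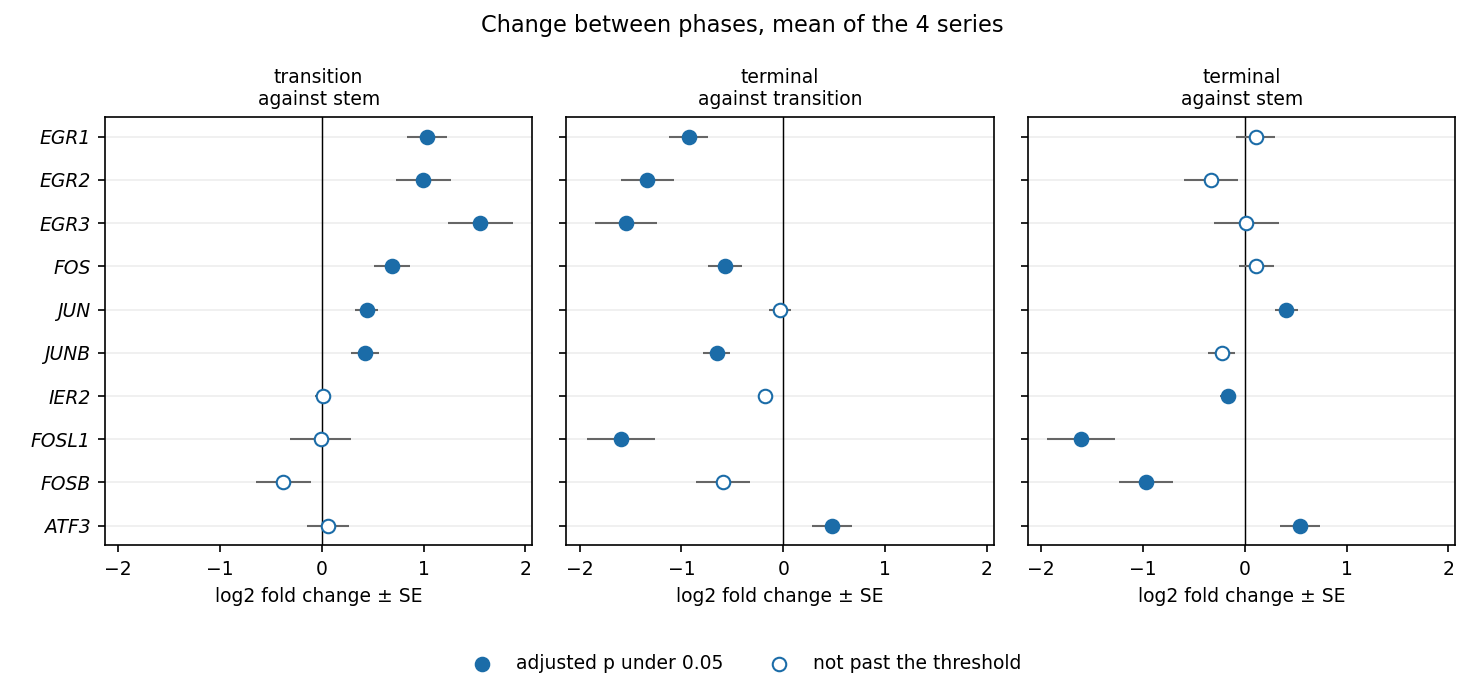
Log2 fold change of each gene with its SE for transition against stem, terminal against transition, and terminal against stem, as the mean of the 4 series. EGR1, EGR2, EGR3, FOS and JUNB lie above 0 in the first comparison and below 0 in the second, and none of the 5 passed for terminal against stem.

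Terminal against stem libraries gave a set of genes that shared JUN with transition against stem, and ATF3 and FOSL1 with terminal against transition. JUN and ATF3 were higher (2 of 10, where 31.9% of all genes were called higher), and FOSL1, FOSB and IER2 were lower (3 of 10, where 30.4% were). The median was -0.0764, against 0.00084 over all genes. JUN averaged 106 ± 17.3 CPM in terminal libraries and 79.5 ± 21.02 CPM in stem libraries (0.41 ± 0.11, adjusted p = 0.0017, higher mean in 4 of 4 series), and the change was 0.26 ± 0.09 without day 1, still past the threshold (0.017). FOSL1 fell by 1.61 ± 0.33 (adjusted p = 1.1e-04) and FOSB by 0.97 ± 0.27 (0.0021), with lower means in 4 of 4 series, and leaving out day 1 took the FOSL1 change to -0.95 ± 0.30. ATF3 was at 0.54 ± 0.20 (adjusted p = 0.017), lost without the day 5 library of E77 Occipital (0.46, adjusted p = 0.052) and 0.82 without the E42 Anterior series. IER2 was at -0.17 ± 0.07 (adjusted p = 0.049), lost in 7 of 26 fits with 1 library left out, the highest adjusted p being 0.11. With 1 value per day limma called JUN and FOSB, but not FOSL1 (-1.20, adjusted p = 0.062), IER2 (0.093) or ATF3 (0.12). EGR1 (0.11 ± 0.19), FOS (0.12 ± 0.17), EGR3 (0.01 ± 0.32), EGR2 (-0.33 ± 0.27) and JUNB (-0.23 ± 0.14) did not pass, all edgeR values, though JUNB passed without day 1 and without the day 1 library of E77 Occipital. Neuron markers were higher in 9 of 10 (median 2.66), astrocyte markers in 7 of 8 and cycling cell markers lower in 10 of 10 in the same comparison, and their part in these changes was not tested.

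For 2 genes the terminal against stem change differed with age (edgeR, E77 change minus E42 change, 9.46% of all genes called higher and 9.95% lower). FOSL1 changed by -0.21 in E77 Frontal and -0.86 in E77 Occipital, against -1.50 in E42 Anterior and -3.85 in E42 Posterior, a difference of 2.14 ± 0.67 (adjusted p = 0.025). ATF3 changed by 0.82 in E77 Frontal and 1.40 in E77 Occipital, against -0.43 in E42 Anterior and 0.38 in E42 Posterior, a difference of 1.14 ± 0.39 (adjusted p = 0.040). Neither passed without day 1, where FOSL1 gave 1.57 (adjusted p = 0.075) and ATF3 0.87 (0.15), and FOSL1 was also lost when the day 1 library of E42 Anterior or of E42 Posterior was left out. In the fits on RPKM values the FOSL1 difference was 0.39 (pseudocount 1, adjusted p = 0.27) and 1.17 (pseudocount 0.1, 0.12). ATF3 was lost without day 20 (1.17, adjusted p = 0.057) and in 9 of 26 fits with 1 library left out, from each of the 4 series, the highest adjusted p being 0.092.

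Single days were compared next, though FOS and EGR2, which had been called between phases, passed in none of these steps. From day 1 to day 5, in FGF2 throughout, JUN (0.64 ± 0.15, adjusted p = 0.0036), EGR3 (1.52 ± 0.43, 0.016), JUNB (0.65 ± 0.21, 0.040) and EGR1 (0.76 ± 0.25, 0.041) rose and FOSL1 fell by 1.74 ± 0.44 (0.0077), which is 4 of 10 higher against 7.88% of all genes and 1 of 10 lower against 6.65% (edgeR). EGR1 averaged 75.4 ± 28.9 CPM on day 5 and 43.7 ± 9.84 CPM on day 1 (SD, n = 4 each). Of these calls JUNB was lost in 7 and EGR1 in 6 of the 8 fits with 1 library left out. Without the E42 Anterior series EGR1 was at 0.60 (adjusted p = 0.18), EGR3 at 0.97 (0.16) and JUN at an adjusted p of 0.054, and FOSL1 was lost without the day 1 library of E42 Posterior (0.070).

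At the FGF2 withdrawal itself, day 6 against day 5, edgeR called 0 of the 10 genes, and only 0.0962% of all genes higher (20 genes) and 0.361% lower (75 genes). EGR1 averaged 127 ± 16.3 CPM on day 6 and 75.4 ± 28.9 CPM on day 5 (SD, n = 4 each), a log2 fold change of 0.79 ± 0.25 (adjusted p = 0.12), and the 4 day 6 libraries (103 to 139.5 CPM) overlapped the day 5 libraries (51.9 to 116 CPM). At an unadjusted p under 0.05 the count was 4 (EGR1, EGR2, EGR3 and FOSL1), where 14.8% of all genes had one, and DESeq2 called 1, EGR1. The step was upward in 4 of 4 series for FOS, FOSL1, JUN, JUNB, EGR1, EGR2 and EGR3. The fall from day 7 to day 8 was clearer. EGR1 fell by 1.25 ± 0.25 on the log2 scale (adjusted p = 0.0035), to 64.5 ± 14.4 CPM on day 8 against 155 ± 52.0 CPM on day 7, and this call held under every alternative run and with each library left out. EGR3 fell by 1.57 ± 0.40 (0.022), FOSL1 by 1.63 ± 0.45 (0.037) and FOSB by 1.26 ± 0.36 (0.043). These 4 of 10 compare with 1.82% of all genes lower, and 0 of 10 were higher, against 2.03%. EGR1, EGR3, FOS, FOSB and FOSL1 were each lower on day 8 in 4 of 4 series, FOS with -0.81 ± 0.31 (adjusted p = 0.15). In E77 Occipital, however, FOS and EGR3 hardly moved, day 7 being 1.006-fold of day 8 for each. EGR2 was lower in 3 of 4 series, with -1.15 ± 0.40 (adjusted p = 0.11). The count of calls was 1 without the E42 Anterior series and 1 or 2 with any single library left out, where FOSL1 was lost in 8, FOSB in 7 and EGR3 in 6 of the 8 fits.

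Genes of the same response and of its upstream pathway did not all follow. Among 31 other immediate early genes tested, 10 were higher and 3 lower in transition against stem libraries (edgeR, median log2 fold change 0.129). Over all genes 21.6% were higher and 20.0% lower. SIK1, a CREB-induced kinase, rose by 1.90 ± 0.22, to 43.6 ± 23.0 CPM in transition libraries against 14.3 ± 12.2 CPM in stem libraries, and ZFP36, which destabilises short-lived transcripts, rose by 0.89 ± 0.14. CCN2 and CCN1, matricellular genes driven by SRF and YAP, were lower by 3.41 ± 0.61 and 1.38 ± 0.31, the stem libraries of CCN1 running from 14.8 to 473 CPM. Most of this drop lay between day 1 and day 5, in FGF2. CCN1 averaged 168 ± 204, 25.5 ± 12.1 and 31.8 ± 14.5 CPM on days 1, 5 and 6 (SD, n = 4 each). CCN2 averaged 671 ± 1288, 8.21 ± 13.5 and 4.03 ± 3.48 CPM on the same days. At the terminal phase 12 of the 31 were higher (22.7% of all genes) and 6 lower (19.2%) than in transition libraries (median 0.199). The synaptic gene ARC fell by 1.38 ± 0.21, to 8.62 ± 1.56 CPM against 23.0 ± 13.1 CPM, and ZFP36 fell by 0.77 ± 0.14, whereas the kinase gene SGK1 rose by 2.18 ± 0.29 and MYC by 1.04 ± 0.18. SIK1 was still at 53.5 ± 23.8 CPM in terminal libraries. From day 7 to day 8 the 1 gene of this list that passed was ARC (-1.82), named after its value was seen. Over all genes 2.03% were higher and 1.82% lower at that step.

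A list of 14 ERK pathway feedback genes holds genes that ERK induces, among them phosphatases that limit it and ETS factor genes. Of the 14, 4 were higher (21.6% of all genes) and 2 lower (20.0%) at transition (median 0.107). DUSP4, a nuclear ERK phosphatase, rose by 1.81 ± 0.26 and DUSP5, another, by 1.79 ± 0.20, whereas the ETS factor gene ETV4 fell by 1.23 ± 0.22. In terminal against transition libraries 9 of the 14 were higher (22.7% of all genes) and 1 lower (19.2%). The median was 0.363, a direction opposite to that of EGR1. DUSP4 stood at 37.3 ± 31.5 CPM in 12 stem libraries, 140.5 ± 136 CPM in 12 transition libraries and 409 ± 194 CPM in 14 terminal libraries. DUSP6 rose by 1.43 ± 0.32 and SPRY4 by 1.42 ± 0.22 from transition to terminal phase. From day 1 to day 5, in contrast, 7 of the 14 were lower (6.65% of all genes) and 2 higher (7.88%). The median was -0.591, with DUSP6 down by 2.15 ± 0.31 on the log2 scale.

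SRF has a second set of targets, the actin cytoskeleton genes that it drives with MRTF cofactors. Of 12, 11 were lower and 0 higher in transition than in stem libraries (median -0.815), with TAGLN lower by 2.51 ± 0.30 and ACTA2 by 1.46 ± 0.46. Over all genes 20.0% were lower and 21.6% higher, shares that bear on each transition count in this paragraph. Means of these genes had already dropped from day 1 to day 5, in FGF2. TAGLN averaged 599 ± 1076, 119 ± 194 and 23.3 ± 27.2 CPM on days 1, 5 and 6 (SD, n = 4 each). ACTA2 averaged 511 ± 1009, 30.1 ± 58.2 and 8.28 ± 14.2 CPM on the same days. TPM1 averaged 469 ± 597, 117 ± 69.9 and 131 ± 23.6 CPM, with no fall from day 5 to day 6. Of 9 SRF, ternary complex and MRTF factor genes 2 were higher and 1 lower at transition. NAB2, a corepressor induced by EGR1 that binds it, rose by 0.38 ± 0.10 at transition and fell by 0.46 ± 0.10 at the terminal phase, and NAB1 rose by 0.19 ± 0.05 at transition. Among 12 tested AP-1 and bZIP partners, JDP2 (0.43 ± 0.16), MAFF (0.42), CREB1 (0.32 ± 0.07) and ATF2 (0.19 ± 0.06) were higher at transition and 0 were lower, MAFF being named after its value was seen. Secreted and matrix genes linked to AP-1 fell in 6 of 11 and rose in 0 (median -0.888), SPP1 by 1.42 ± 0.29 and TIMP1 by 0.89 ± 0.11. Activity-regulated neuronal genes were higher in 5 of 14 and lower in 3 (median 0.535), ADCYAP1 with 2.51 ± 0.51 and NPTX2 with -1.98 ± 0.34. Heat shock genes split 3 higher and 3 lower of 11, and integrated stress response genes 2 and 3 of 12. At the terminal phase 3 integrated stress response genes were higher (22.7% of all genes) and 1 lower (19.2%) than at transition. ASNS was among the higher with 1.22 ± 0.35.

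E77 Frontal was then compared with E77 Occipital over the 10 days both shared, with the day as a block. In E77 Frontal 8 of 10 genes were higher (16.3% of all genes were called higher) and 0 of 10 lower (13.8%), with a median log2 fold change of 0.586 against -0.00964 over all genes (edgeR). FOSL1 showed the largest difference, with 1.83 to 4.45 CPM in E77 Frontal and 0.22 to 1.55 CPM in E77 Occipital, groups that did not overlap (1.89 ± 0.18, adjusted p = 3.4e-09, higher on 10 of 10 days). EGR2 (1.07 ± 0.22, adjusted p = 5.4e-04), FOSB (0.96 ± 0.24, 0.0031) and EGR3 (0.92 ± 0.26, 0.0070) were higher on 8, 9 and 10 of the 10 days. JUNB was at 0.45 ± 0.12 (adjusted p = 0.0069), ATF3 at 0.69 ± 0.21 (0.016), JUN at 0.33 ± 0.10 (0.014) and FOS at 0.49 ± 0.18 (0.038). EGR1 (0.15 ± 0.13, adjusted p = 0.43) and IER2 (-0.10 ± 0.08, 0.39) did not pass. Without the replicate block JUN (0.30, adjusted p = 0.082) and FOS (0.068) did not pass. FOS was lost in 11 of 20 fits with 1 library left out, ATF3 without the day 7 library of E77 Frontal (0.54, adjusted p = 0.074), and JUN without its day 8 library (0.053), the JUN difference being 0.22 without its day 1 library. Cycling cell markers were higher in E77 Frontal in 9 of 10 and mesenchymal markers in 6 of 10, while 9 of 14 activity-regulated neuronal genes were higher (median 1.5). Their part in the difference was not tested.

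E42 Anterior against E42 Posterior, over 9 shared days, gave 7 of 10 genes higher (25.1% of all genes) and 0 lower (30.3%), with a median of 0.382 against -0.0565 over all genes (edgeR, day as a block). EGR2 led, at 4.53 ± 2.30 CPM in E42 Anterior and 1.47 ± 0.932 CPM in E42 Posterior (SD, n = 9 each, 1.68 ± 0.23, adjusted p = 9.5e-07), and was higher on 9 of 9 days, with the ranges overlapping. JUNB (1.01 ± 0.13, adjusted p = 3.0e-07), JUN (0.37 ± 0.10, 0.0039), IER2 (0.31 ± 0.08, 0.0026) and EGR1 (0.38 ± 0.14, 0.023) were also higher on 9 of 9 days, EGR3 (1.23 ± 0.26, 2.7e-04) on 8 and ATF3 (0.58 ± 0.18, 0.0072) on 7. EGR1 was lost without the replicate block (adjusted p = 0.17) and in both limma fits on RPKM values. It held in 15 of 18 edgeR fits with 1 library left out, the highest adjusted p being 0.078. FOS (0.04 ± 0.18), FOSB (-0.17 ± 0.22) and FOSL1 (0.38 ± 0.22) did not pass, FOSL1 giving 0.58 (adjusted p = 0.020) without the day 1 library of E42 Posterior. The E42 Anterior series is the one with the high mesenchymal marker sums given above: 10 of 10 of those markers were higher (median 7.35), as were 9 of 12 SRF and MRTF cytoskeletal targets, and 9 of 12 integrated stress response genes, and 8 of 10 neuron markers were lower. The part of these cells in the difference was not tested.

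**Figure D3:**
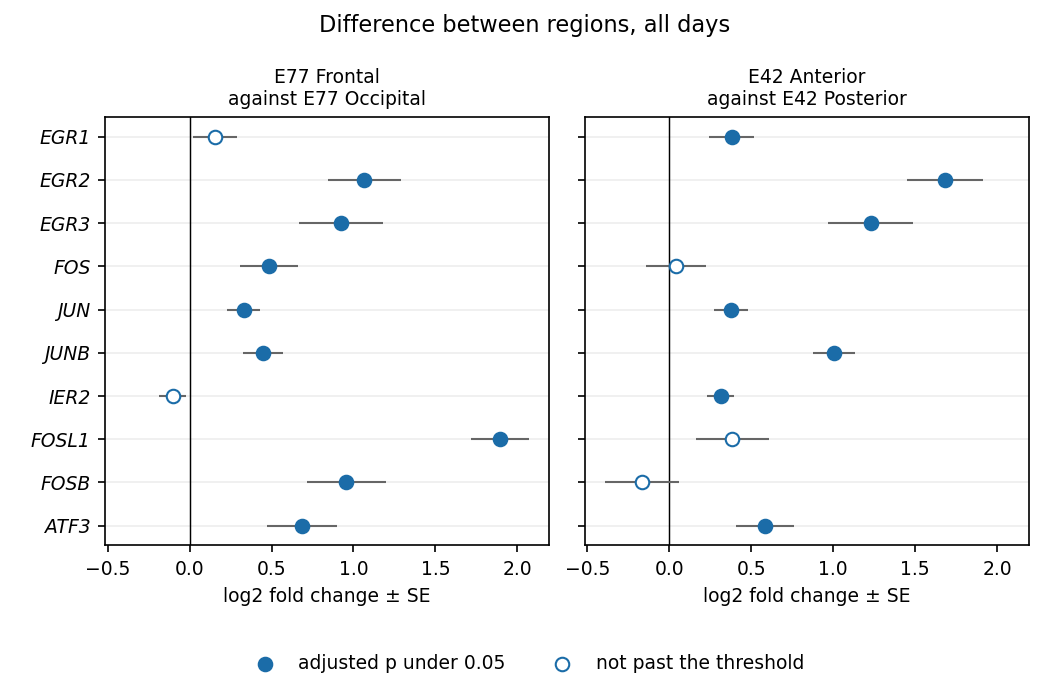
Log2 fold change with its SE for E77 Frontal against E77 Occipital and for E42 Anterior against E42 Posterior, day as a block. FOSL1 has the largest difference in the E77 pair (1.89) and EGR2 in the E42 pair (1.68), and FOS and FOSB are near 0 in the E42 pair.

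Comparing E77 with E42 by phase, IER2 and ATF3 were lower at E77 in all 3 phases (edgeR, day as a block). In stem libraries 2 of 10 genes were lower (31.4% of all genes) and 1 of 10 higher (28.8%). ATF3 stood at 0.36 to 1.28 CPM in 6 E77 stem libraries and 1.53 to 8.75 CPM in 6 E42 stem libraries, groups that did not overlap (-2.06 ± 0.25, adjusted p = 1.8e-07). IER2 averaged 31.5 ± 7.37 CPM at E77 and 46.9 ± 5.30 CPM at E42 (-0.59 ± 0.10, adjusted p = 2.9e-05), the ranges overlapping. FOS was at 0.64 ± 0.23 (adjusted p = 0.018), but gave 0.40 (0.18) without day 1, 0.37 without the day 1 library of E77 Frontal and 0.36 without the day 3 library of E77 Occipital. FOSL1 was at 0.24, and at 0.64 (adjusted p = 0.036) without day 1 and 0.52 (0.044) without the day 1 library of E42 Posterior.

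In transition libraries FOSL1 was higher at E77 (1 of 10, against 25.7% of all genes) and IER2 and ATF3 lower (2 of 10, against 31.1%). ATF3 ranged from 0.53 to 1.25 CPM at E77 and from 2.66 to 6.04 CPM at E42, again without overlap (-2.21 ± 0.25, adjusted p = 6.1e-08), and IER2 was at -0.56 ± 0.10 (7.6e-05). FOSL1 was at 0.95 ± 0.22 (adjusted p = 7.1e-04), and at 0.90 ± 0.43 (0.082) without the replicate block. In terminal libraries 1 of 10 was higher (20.6% of all genes) and 3 of 10 lower (24.4%). FOSL1 was at 2.33 ± 0.29 (adjusted p = 2.8e-07), with 1.87 to 2.82 CPM in E77 Frontal and 0.22 to 0.84 CPM in E77 Occipital, against 0.22 to 0.57 CPM in E42 Anterior and 0.10 to 0.13 CPM in E42 Posterior, so the E77 Occipital and E42 Anterior libraries overlapped. ATF3 (-0.95 ± 0.23, adjusted p = 0.0015), IER2 (-0.40 ± 0.10, 0.0029) and FOSB (-1.09 ± 0.32, 0.0071) were lower, FOSB with -0.61 (0.085) without the day 14 library of E42 Posterior and -0.71 (0.051) without that of E77 Frontal. EGR1, EGR2, EGR3, JUN and JUNB did not pass in any of the 3 phases in the edgeR fit on all libraries. With 1 stem library left out, however, JUNB passed in 3 of 12 fits and EGR1, EGR3 and JUN in 1 of 12 each. Fitted on only the libraries of the phase, EGR1 passed as lower at E77 in transition and terminal libraries, and EGR3 in terminal libraries. EGR3 also passed in the terminal phase when the day 11 library of E42 Posterior was left out (adjusted p = 0.0434, edgeR). JUNB passed in stem libraries with DESeq2. Astrocyte markers were higher at E77 in 6 or 7 of 8 and mesenchymal markers lower in 8 or 9 of 10 in each phase, and in stem libraries 9 of 12 integrated stress response genes were lower (median -0.623). Their part in the ATF3 and IER2 differences was not tested.

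**Figure D4:**
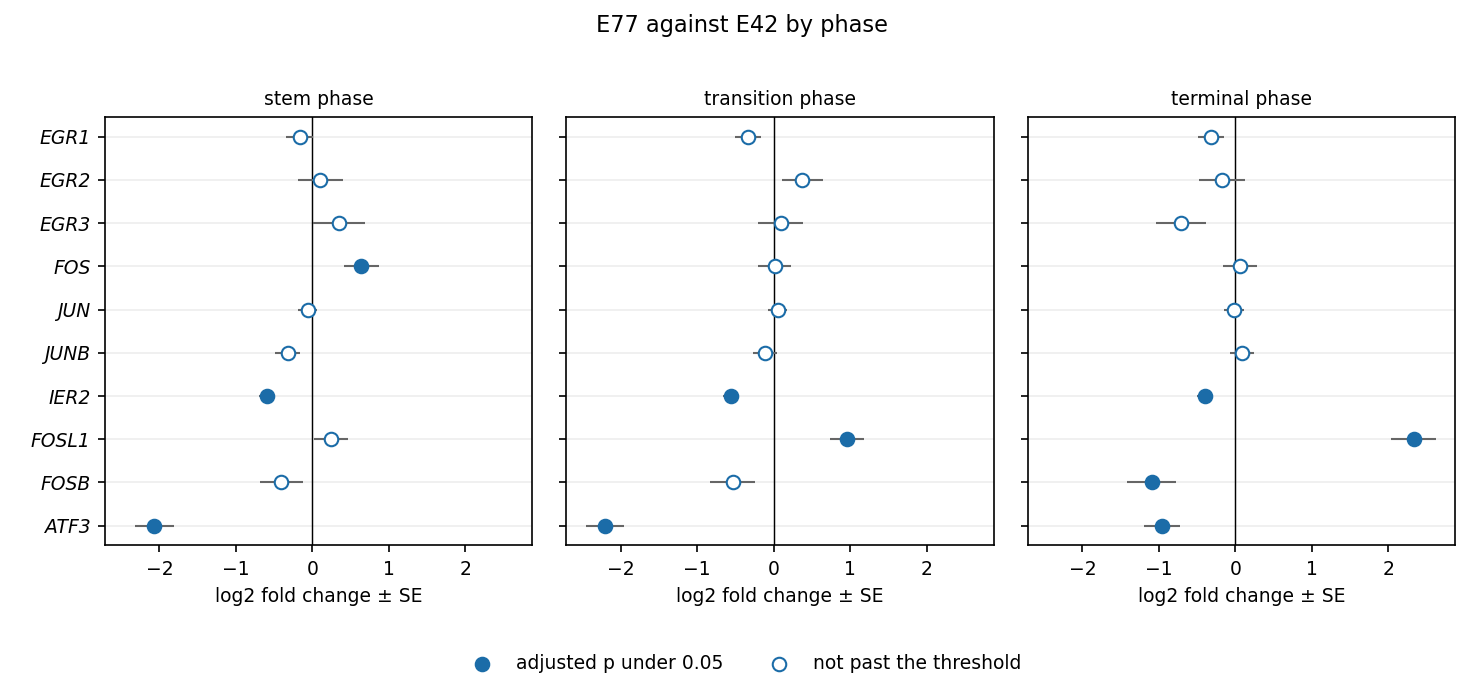
Log2 fold change with its SE for E77 against E42 in the stem, transition and terminal phases. ATF3 and IER2 lie below 0 in all 3 phases, and FOSL1 moves to 2.33 in the terminal phase.

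The genes also varied together to different degrees. Over the 38 libraries, with each series mean subtracted, Pearson's r of log2 CPM had a median of 0.30 over the 45 pairs, with 13 over 0.5 and 11 under 0. These are descriptions, since libraries share series and days. The closest pairs were EGR1 and EGR3 (0.85), FOS and EGR1 (0.83), EGR1 and EGR2 (0.81), EGR2 and EGR3 (0.79) and JUNB and IER2 (0.73). FOSB and FOSL1 reached 0.50. ATF3 was negative with all 9 others, by -0.09 with JUN to -0.41 with FOS. Among all other tested genes with a symbol, the one most like each member by the same measure was GTF2I for both EGR1 (0.87) and FOS (0.77), P2RX5 for EGR2 (0.84), GRIA3 for EGR3 (0.82), ZFP36 for JUNB (0.81), NPTXR for JUN (0.83), ABCC9 for FOSL1 (0.82), AP5S1 for FOSB (0.82), TBC1D10B for IER2 (0.82) and ASNS for ATF3 (0.77). TCP11L2 was among the nearest 3 of EGR1 (0.84), EGR2 (0.76) and EGR3 (0.78). ASNS, an asparagine synthetase gene induced by ATF4, had medians of 7.01 CPM in E77 Frontal and 6.18 CPM in E77 Occipital, against 72.7 CPM in E42 Anterior and 23.9 CPM in E42 Posterior, the order of ages that ATF3 also showed.

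**Figure D5:**
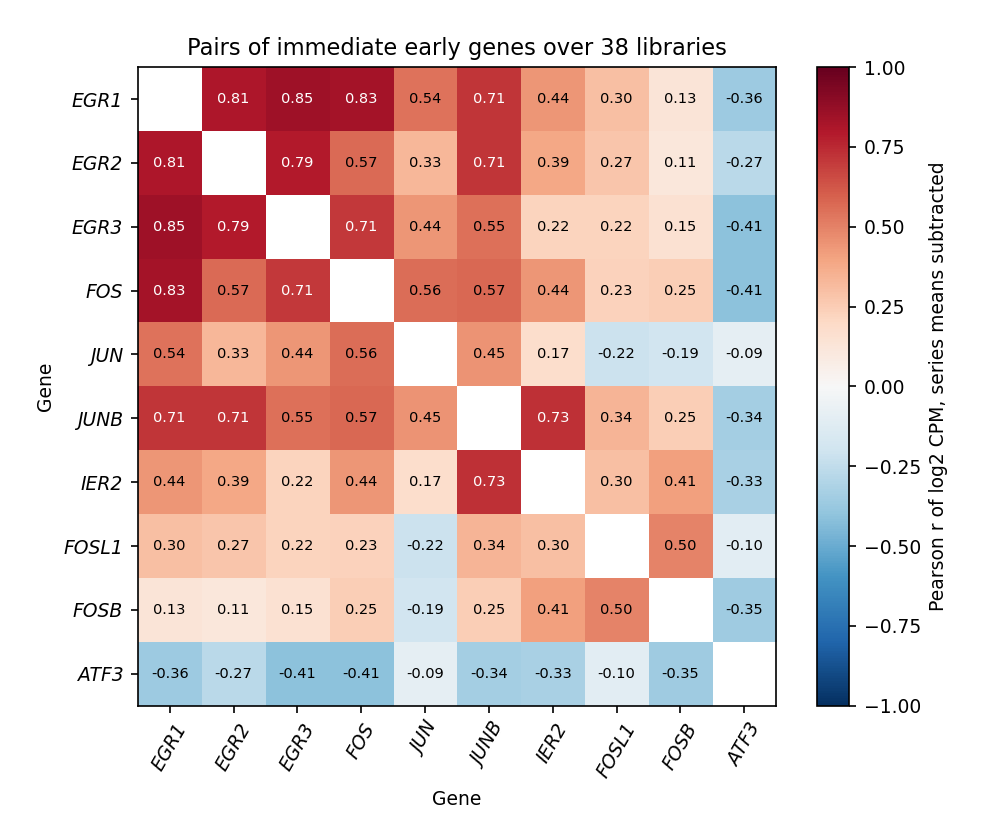
Pearson's r of log2 CPM between the 10 genes over 38 libraries after subtracting each series mean. The 3 EGR genes and FOS form the block of highest r (EGR1 and EGR3 at 0.85), and ATF3 is negative with the other 9.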

How the data were processed

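RNA was sequenced as strand-specific (dUTP) libraries, 1 per series and day. The deposited count table gives whole reads per gene, aligned with STAR and counted with featureCounts per the submitters' processing notes. The strand setting of the counting, the genome build and the annotation are not given in the sources used here. RPKM values are as the authors deposited them and served to compare levels between genes and in an alternative test.

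Counts were tested in R 4.3.3 with edgeR 4.0.16 (quasi-likelihood test, TMM factors of 0.899 to 1.104, filterByExpr on the 12 groups of series and phase), which left 13825 genes untested, 4629 of them at 0 in every library. Group means (26 residual degrees of freedom) served the phase comparisons, group means with day as a block (19) the age and region comparisons, and series plus day (25) the single-day comparisons, all fitted on all 38 libraries. P-values were adjusted over all 20794 genes (Benjamini-Hochberg, 0.05). The SE of a log2 fold change is its size over the square root of F. CPM are counts over library total times TMM factor, and log2 CPM used a prior count of 2. The day was kept as a block because the labels give it. Of 55 same-day pairs of libraries in a phase, 44 had residual correlations over 0.1 (-0.096 to 0.685, median 0.224). No 2 of the 703 pairs of libraries agreed within counting noise (lowest chi-square per degree of freedom 10.3, genes with at least 20 reads). Alternatives used DESeq2 1.42.0 and limma 3.58.1, the last on log2 RPKM with a pseudocount of 1 or 0.1, keeping genes that reached 1 RPKM in 3 or more libraries. Summaries and figures were made in Python 3.11.15 with pandas 2.3.3, numpy 2.4.6 and matplotlib 3.10.9, and the fits were tested on simulated data.

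The members and the gene lists were chosen with earlier results of these data known. All members are named, and from each list up to 4 genes with the largest change among those past the threshold with at least 5 CPM on average. Sequences of the genes were not used here. A gene that the naming rule would include is not reported here.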

Additional observations from a re-analysis of the deposited data

Results flagged for a closer look

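In the terminal phase of E77 Frontal, day 14 stood apart from the other 3 libraries for 2 genes. FOSB was at 0.402 CPM, against 0.804, 0.859 and 0.885 CPM on the other days, a gap of 0.833 of the whole range. JUN was at 101 CPM, against 126, 127 and 129 CPM, a gap of 0.892 of the range. In all 20 groups of 4 libraries were checked and 2 had such a library, where chance gives about 1 in 20.

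The terminal against stem change differed between E77 and E42 for FOSL1, by 2.14 on the log2 scale, and for ATF3, by 1.14 (edgeR's interaction contrast). Both calls were lost without day 1 (adjusted p = 0.075 for FOSL1 and 0.15 for ATF3), and with 1 library left out FOSL1 was lost in 2 and ATF3 in 9 of 26 fits. FOSL1 changed less at E77 than at E42, and ATF3 changed upward in both E77 series and in 1 of the 2 E42 series.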

How the results depend on the processing

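Over the 10 genes 290 results had 5435 values under alternatives. Of these 5189 kept their side of the threshold, 156 lost a call and 90 gained one. A change of direction in which either value passed occurred in 0. Values that did not pass could change sign and still count as kept. IER2 in transition against stem libraries, for example, was at 0.01, and at -0.04 to 0.04 with 1 library left out. In terminal against stem libraries the count of genes past the threshold, 5 in the report, was 3 with limma on log2(RPKM + 1), 3 with log2(RPKM + 0.1) and 2 with 1 value per day, the RPKM fits testing 8 of the 10 genes. With 1 value per day it was 3 for transition against stem and 0 for terminal against transition. For the difference of the terminal change between ages it was 0 without day 1, 1 without day 20, 0 in both RPKM fits and 0 to 3 with 1 library left out. For E77 against E42 it was 2 in both RPKM fits of the terminal phase, and 2 to 5 in the stem phase with 1 library left out. Fitted on only the libraries of the phase, it was 4 in the transition phase and 6 in the terminal phase. For day 5 against day 1 it was 3 without the filter on low counts, 3 without the E42 Anterior series and 2 to 4 with 1 library left out. DESeq2 called 1 for day 6 against day 5. For day 8 against day 7 it was 1 without the E42 Anterior series and 1 to 2 with 1 library left out. The cause was not tested, except that the RPKM fits lack FOSB and ATF3 and the 1 value per day has fewer samples. Without day 8, chosen after the values were seen, the counts were 6 for transition against stem and 9 for terminal against transition. Without the replicate block the counts were 3, 2 and 4 for age in the stem, transition and terminal phases, 6 for the E42 regions and 6 for the E77 regions. On log2(RPKM + 1) changes of low genes shrink, as for EGR2 (0.47) and EGR3 (0.54) at transition. Depth limits FOSL1 and FOSB most.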
